A study of Mus musculus with 8 samples.

Results

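Mouse embryonic stem cells (ESCs) that carry a reporter of the 2-cell-like state and received the compound SGC0946 were compared with wild-type ESCs by bulk RNA-seq. The comparison takes 4 of the 8 libraries of the series: 2 labelled 2C::GFP+/SGC and 2 labelled mESC. The genotype of mESC is given as WT and its treatment as untreated. The 2C::GFP+/SGC cells have the genotype 2C::GFP+, were grown in KnockOut medium with 20% serum replacement and 10 ng/ml LIF, and received 2 µM SGC0946, an inhibitor of the histone methyltransferase DOT1L. The other libraries are untreated 2C::GFP+ cells (2) and 2C::GFP+/SA cells (2), which received 2 µM SGC0946 and 2 µM AS8351 with IL6/sIL-6R at 10 ng/ml in place of LIF. All libraries are labelled as mouse embryonic stem cells. Nothing in the labels names the promoter behind the reporter, a sort for GFP or separate cultures for the replicates, so p-values measure the spread between these libraries, which may be technical. For ESCs the labels name 2 media, both with 10 ng/ml LIF: N2B27 with 1 µM of the MEK inhibitor PD03 and 3 µM of the GSK3 inhibitor CHIR, or the KnockOut medium. The medium of the mESC libraries is not stated, so the reporter line, the medium and SGC0946 cannot be told apart in any difference between 2C::GFP+/SGC and mESC.

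A small share of cells in an ESC culture passes through a state that resembles the 2-cell embryo. Cells in this state transcribe genes of zygotic genome activation, many of them under the control of the transcription factor DUX, and they contribute to both embryonic and extraembryonic tissue more readily than other ESCs. Most ESCs are instead held in naive pluripotency by LIF, which acts through STAT3, by Wnt signalling and by low MEK-ERK activity. DOT1L methylates histone H3 within the body of transcribed genes. The series names totipotent-like cells obtained with chemicals as its larger subject, and the comparison here asks how reporter cells under DOT1L inhibition differ from ordinary ESCs.

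The mESC libraries held 145810034 and 19544870 counts and the 2C::GFP+/SGC libraries 133694657 and 13902619 (replicates 1 and 2). In CPM, which are counts divided by the TMM-scaled library total, 3 counts corresponded to between 0.0215 and 0.204 in these libraries, and a gene without a count was below that level. In all 4 groups replicate 1 was the deeper one, by 7.46 to 9.62 times, mitochondrial genes took 2% to 2.66% of the counts, and log2 CPM correlated across genes with r between 0.964 and 0.98 within groups. Genes are not independent replicates, and these r are a description. As a bulk measurement, a difference in CPM does not separate more cells with a transcript from more transcript per cell.

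More genes were higher than lower in 2C::GFP+/SGC, and the fitted rises were larger. Of 20608 genes tested, 6115 (29.7%) passed an adjusted p of 0.05 in edgeR's quasi-likelihood test with Benjamini-Hochberg adjustment, 3874 higher (18.8%) and 2241 lower (10.9%). At least 2-fold fitted changes were found for 3252 higher (15.8%) and 806 lower genes (3.91%). Fitted changes of at least 64-fold were found for 919 higher and 12 lower genes. The median log2 fold change of all tested genes was 0.06. Among the genes called higher, 634 had no count in either mESC library and 283 had 1 to 3 counts there. Their fitted folds rest on few or no mESC counts and are no bounds, and such genes are among the 919. The filter can keep a gene through its level in any group. Both 2C::GFP+/SGC libraries lay above both mESC libraries for 7360 genes (35.7%) and below them for 6361 (30.9%). Of the genes called higher 3793 were free of overlap between groups, as were 2241 of those called lower. The split between directions differed between gene classes, which were not matched for level. A gene near 0 in mESC can hardly be called lower, so class and level were not separated here. Among 15718 protein-coding genes 19.3% were higher and 13.6% lower, among 2238 long non-coding genes 17% and 2.68%, and among 1831 pseudogenes 19.9% and 0.928%. Of the called genes 63.4% were higher in the edgeR fit. This share was 76.7% with limma on log2(TPM + 0.1), 60% with a stricter filter and 58.5% without both 2C::GFP+/SA libraries. Without mESC replicate 1 the count of called genes was 3454, and without 2C::GFP+/SGC replicate 2 the count of lower genes was 1208.

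**Figure D1:**
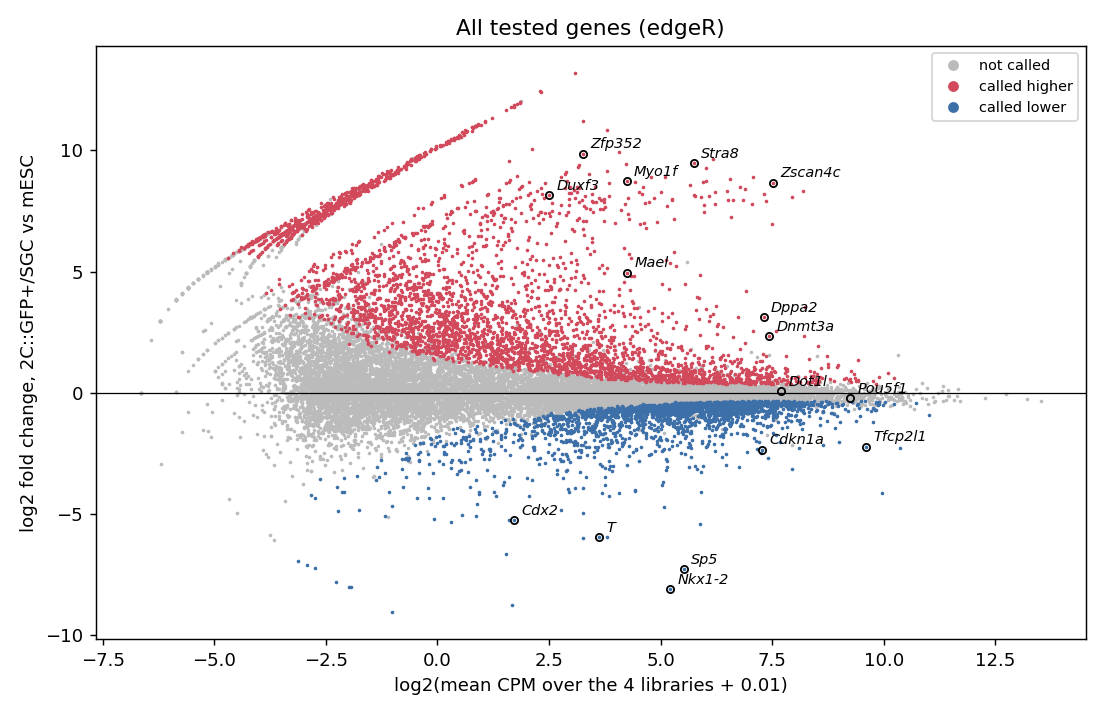
Log2 fold change of 2C::GFP+/SGC against mESC (vertical axis, edgeR) for each of the 20608 tested genes against its level (horizontal axis, log2 of the mean CPM over the 4 libraries + 0.01). Red points are the 3874 genes called higher and blue points the 2241 called lower. The straight streaks at the upper left are genes with no or few counts in mESC, and the labelled genes are described in the text.

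Genes of the 2-cell-like state were the group with the highest median. Of 35 tested members of this list, 30 were called higher (85.7%, against 18.8% of all tested genes) and 2 lower, and 3 did not pass. Their median log2 fold change was 7.94, and it was 7.76 with the 2 members that had no count in mESC set to their bound of 3 counts over the group, against 0.06 for all genes. All 17 tested members of the tandem families Zscan4, Usp17l, Tdpoz and Tcstv were higher (median 8.09). Copies within these families are nearly identical, so the count of each copy is uncertain. Of the 18 other members 13 were higher and 2 lower (median 7.45). The summed TPM of the list, a level per length of transcript, was 203.9 and 229.5 in mESC and 6213 and 6067 in 2C::GFP+/SGC.

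Zscan4c (ENSMUSG00000054272, GRCm38 chromosome 7, 11005745 to 11010547), which encodes a nuclear protein of the 2-cell embryo linked to telomere maintenance, stood at 0.692 and 1.49 CPM in mESC and at 356 and 372 CPM in 2C::GFP+/SGC. The groups were far apart, and both mESC libraries held counts of the gene. The log2 fold change was 8.67 ± 0.77 (SE, edgeR adjusted p = 0.00124), which is 408-fold. Its neighbour Zscan4d (ENSMUSG00000090714, chromosome 7, 11161374 to 11166159) went from 1.09 and 3.44 to 539.7 and 621 CPM (8.30 ± 0.95, adjusted p = 0.00402). Per length, Zscan4d reached a mean of 918 TPM in 2C::GFP+/SGC, beside 890 for Pou5f1 and 1024 for Nanog, 2 of the most abundant transcription factor genes of ESCs. In mESC the mean of Zscan4d was 3.39 TPM.

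Duxf3 (ENSMUSG00000075046, chromosome 10, 58229979 to 58232675), a copy of the gene for DUX, had 0.0437 and 0 CPM in mESC and 9.24 and 13.4 CPM in 2C::GFP+/SGC. With 6 counts in mESC against 1488, its log2 fold change was 8.14 ± 0.39 (adjusted p = 1.38e-08), and 12.4 without mESC replicate 1. Zfp352 (ENSMUSG00000070902, chromosome 4, 90218820 to 90225702), a zinc finger gene of zygotic genome activation, had 3 counts in mESC and 22.3 and 15.9 CPM in 2C::GFP+/SGC, a ratio of 1130 with a 95% counting interval of 387 to 5500 (adjusted p = 0.0004). Ubtfl1, a preimplantation gene related to a nucleolar transcription factor, went from 0.0437 and 0.103 to 38.8 and 36.2 CPM (9.45 ± 0.51). These transcripts were near the detection limit in mESC and were well covered in both treated libraries. Tmem92, a membrane protein gene, rose by 7.94 ± 0.36 (log2, SE) and Arg2, a mitochondrial arginase, by 7.11 ± 0.37. The members that fell were Zfp750, a regulator of epidermal differentiation (-1.94 ± 0.38, adjusted p = 0.00189), and Patl2, an RNA-binding protein of oocytes (-0.90 ± 0.31, adjusted p = 0.0463). The call of Patl2 ended without either replicate of mESC (adjusted p = 0.131 and 0.143) or of 2C::GFP+/SGC (0.24 and 0.0942), as well as with RLE factors, limma, thinned libraries and the stricter filter.

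**Figure D2:**
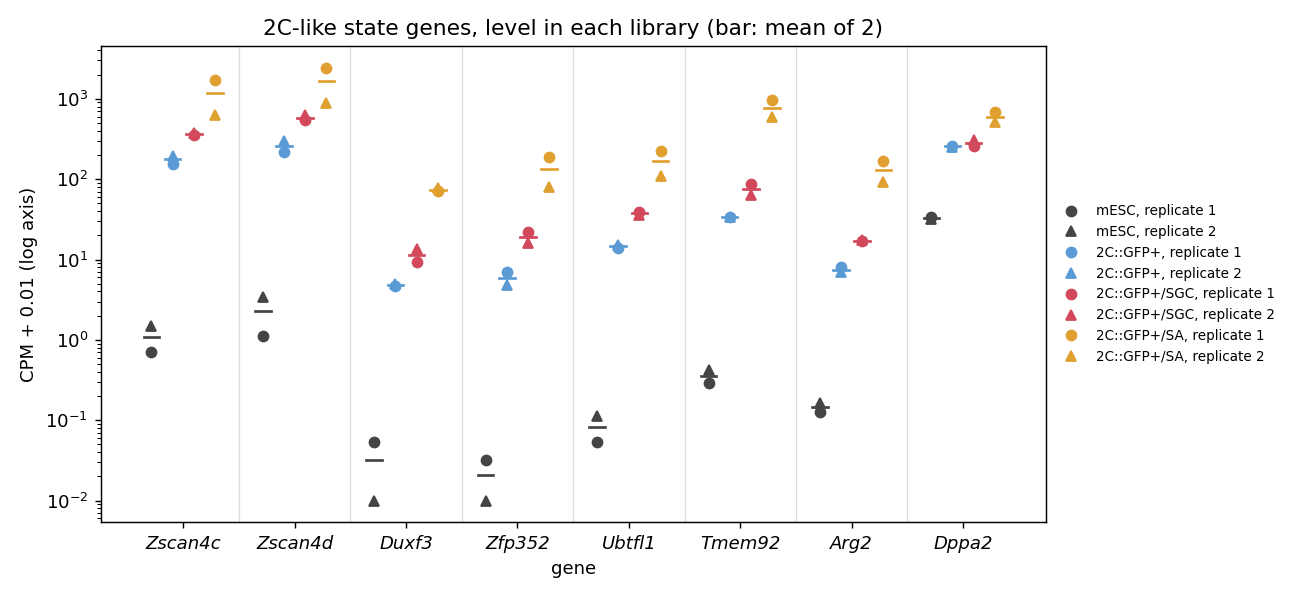
CPM + 0.01 (log axis) of 8 genes of the 2-cell-like state in each of the 8 libraries, with circles for replicate 1, triangles for replicate 2 and a bar at the mean of the 2. For each gene shown both 2C::GFP+/SGC libraries lie above both mESC libraries, with untreated 2C::GFP+ between them or level with 2C::GFP+/SGC (Dppa2), and points at the bottom edge are libraries without a count.

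Among known regulators of the 2-cell-like state the share of calls was near that of all genes or below it. Of 35 activators and repressors tested, 6 were higher (17.1%, against 18.8% of all tested genes), 1 lower (2.86%, against 10.9%) and 28 did not pass, with a median of 0.03. Dppa2 (ENSMUSG00000072419, chromosome 16, 48303908 to 48319723), a chromatin factor upstream of Dux, stood at 34 and 31.9 CPM in mESC and at 258 and 311 CPM in 2C::GFP+/SGC. The replicates were close within each group, and the log2 fold change was 3.11 ± 0.16 (adjusted p = 2.63e-08). Its partner Dppa4 rose by 1.24 ± 0.14 and Myc, a growth regulator, by 1.30 ± 0.18. Lin28a, an RNA-binding protein of pluripotency, was lower at -0.44 ± 0.15 (log2, adjusted p = 0.0413), a call that ended without 2C::GFP+/SGC replicate 1 (0.294), mESC replicate 1 (0.267) or 2C::GFP+ replicate 1 (0.0608) and under other settings, DESeq2 among them (0.0611). Of 14 maternal oocyte genes tested, 8 were higher (57.1%, against 18.8% of all tested genes) and 0 lower (against 10.9%). Their median was 2.07, or 1.65 with bounds for members without counts in mESC. Nlrp14, an oocyte gene needed for early cleavage, went from 0.634 and 0.513 to 7.17 and 10.7 CPM (3.89 ± 0.36), and Nlrp4f rose by 1.04 ± 0.24. Most other members were under 1 CPM in mESC, and 3 were called higher without 2C::GFP+/SGC replicate 1 (median 1.09) and 2 without mESC replicate 1. Obox1 had no count in mESC and 33 in 2C::GFP+/SGC, at least 11.2-fold higher, and its call ended without 2C::GFP+/SGC replicate 1 (adjusted p = 0.105) or mESC replicate 1 (0.191).

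Most germline and meiosis genes were higher in 2C::GFP+/SGC. Of 29 tested, 25 were called higher (86.2%, against 18.8% of all tested genes), 1 was lower and 3 did not pass, with a median of 3.11. Stra8 (ENSMUSG00000029848, chromosome 6, 34920163 to 34939344), which starts meiosis in response to retinoic acid, was at 0.138 and 0.205 CPM in mESC and at 80.9 and 132 CPM in 2C::GFP+/SGC. Its log2 fold change was 9.46 ± 0.50 (adjusted p = 5.67e-06), a 705-fold difference. Smc1b, a cohesin subunit of meiotic chromosomes, went from 0.525 and 0.462 to 15.1 and 18.5 CPM (5.04 ± 0.31). Mael, which acts in the piRNA pathway, went from 1.25 and 1.03 to 29.3 and 44.5 CPM (4.95 ± 0.26). Both were detected in mESC and rose about as far as each other. Tex19.1, a gene that keeps transposons in check in the germline, was already at 16.5 and 14.3 CPM in mESC and reached 98.7 and 144 CPM (2.97 ± 0.18). Rec8, another meiotic cohesin subunit, fell by 0.97 ± 0.22 (log2, SE, adjusted p = 0.00462), and its call ended without mESC replicate 2 (0.0828) and with limma on log2(TPM + 1) (0.0646).

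Stra8 also belongs to the retinoic acid response, in which retinoic acid binds nuclear receptors and switches on targets that include its own degrading enzymes and anterior Hox genes. Of 18 tested genes of this list 11 were higher, 1 lower and 6 did not pass (median 2.42). That is 61.1% higher and 5.56% lower, against 18.8% and 10.9% of all tested genes. Rarg, a retinoic acid receptor, went from 71.4 and 40.4 CPM in mESC to 314 and 338 CPM in 2C::GFP+/SGC (2.53 ± 0.24, adjusted p = 6.94e-05). Rbp4, the carrier of retinol in blood, was at 0.146 and 0.103 CPM in mESC and at 1.58 and 2.17 CPM in 2C::GFP+/SGC (3.76 ± 0.60).

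The Hox clusters, which set positional identity along the body axis, did not move as 1 group. Of 32 tested Hox genes and transcripts, 20 were higher and 4 lower, with a median of 3.44 (3.20 with bounds). The shares were 62.5% and 12.5%, against 18.8% and 10.9% of all tested genes. The direction followed the cluster: 7 of 8 tested members of Hoxa, 6 of 8 of Hoxb and 6 of 7 of Hoxd were higher with none lower, while in Hoxc 0 of 8 were higher and 4 lower (median -2.50). Levels were low. No cluster had a member above a mean of 1.87 CPM in mESC except Hoxc (12.2 CPM), and in 2C::GFP+/SGC the highest protein-coding member was Hoxd13, at a mean of 7.01 ± 1.24 CPM (SD, n = 2). Hoxd13 (ENSMUSG00000001819, chromosome 2, 74668310 to 74671599) went from 0.743 and 1.13 to 6.13 and 7.88 CPM (2.99 ± 0.29), and Hoxd1 from 4 counts or fewer per library to 1 and 1.29 CPM. Hoxc12 (ENSMUSG00000050328, chromosome 15, 102936757 to 102938609) went from 7.76 and 8.11 to 0.48 and 0.952 CPM (-3.62 ± 0.51), and Hoxc13 fell by 1.61 ± 0.28 (log2, SE). The non-coding Halr1 (ENSMUSG00000085412, chromosome 6, 52102949 to 52113684), next to the Hoxa cluster, stood apart by its level: 0.131 and 0.205 CPM in mESC and 40.5 and 36 CPM in 2C::GFP+/SGC (8.05 ± 0.27, adjusted p = 8.44e-10). Without mESC replicate 1, which leaves the shallower library alone in its group, 7 Hox genes were called higher.

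More than 1 in 2 tested targets of canonical Wnt signalling were called lower. In this pathway stabilised β-catenin joins TCF/LEF proteins on DNA and activates genes, several of which feed back on the pathway, and CHIR activates it by inhibiting GSK3. Of 22 tested targets 12 were lower (54.5%, against 10.9% of all genes), 1 was higher and 9 did not pass, with a median of -1.04. Sp5 (ENSMUSG00000075304, chromosome 2, 70474923 to 70477729), a transcription factor gene and direct Wnt target, was at 97.8 and 84.5 CPM in mESC and at 0.523 and 0.816 CPM in 2C::GFP+/SGC. Its log2 fold change was -7.28 ± 0.27 (adjusted p = 1.12e-09), which is 155-fold lower. T, the mesoderm regulator brachyury (ENSMUSG00000062327, chromosome 17, 8434423 to 8442496), went from 12.8 and 36 to 0.379 and 0.408 CPM (-5.96 ± 0.67). The mESC replicates of T differed widely, yet both lay far above 2C::GFP+/SGC. Nkx1-2, a homeobox gene of the tail bud, went from 66.4 and 82.4 to 0.322 and 0 CPM (-8.11 ± 0.55, and -15.1 without 2C::GFP+/SGC replicate 1, which leaves only the library at 0). Axin2, a scaffold that limits the pathway, went from 135 and 150.3 to 24.4 and 21 CPM (-2.64 ± 0.19, adjusted p = 5.60e-07), and Cdx2 from 4.47 and 8.21 to 0.129 and 0.272 CPM (-5.27 ± 0.60). The member that rose was Ccnd2, cyclin D2, from 6.86 and 6.06 to 29.7 and 19.9 CPM (1.94 ± 0.25).

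The promoters of the list were searched for the TCF/LEF core motif, since 12 of its 22 tested members were called lower. RefSeq windows of GRCm38.p6 from 250 bases before to 50 bases after the start were found for 15 of the 22 tested members, and 5 held CTTTGAT or CTTTGAA on either strand (33.3%), against 989 of 13220 tested genes with a window (7.48%), 8.13% of genes called higher, 8.04% of genes called lower and 9.88% of all 27025 genes with a promoter entry. Of those 5, Sp5, T and Tnfrsf19 were called lower, and Sp8 and Dkk1 did not pass. The list was made of targets of a pathway that acts through TCF/LEF, so its higher share is no result of these data. Among genes called higher or lower the shares were near that of all tested genes. A match is a description of these letters and not of binding. The motif is in capitals within each stretch, printed along the strand of the gene. In T and Tnfrsf19 it lies on the opposite strand and reads as its reverse complement.
Sp5, chr2:70474799-70474845, plus strand, motif beginning at -104 from the start: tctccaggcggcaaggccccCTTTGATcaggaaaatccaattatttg
T, chr17:8434173-8434214, plus strand, motif beginning at -235: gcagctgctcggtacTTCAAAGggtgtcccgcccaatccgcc
Tnfrsf19, chr14:61038163-61038209, minus strand, motif beginning at -202: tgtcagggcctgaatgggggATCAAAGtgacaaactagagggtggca
Tnfrsf19, a receptor of the tumour necrosis factor family, was named for this match after its values were seen. It went from 34.3 and 33.9 to 15.9 and 13.3 CPM and fell by 1.22 (log2).

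Among MEK-ERK targets more were called higher than lower. ERK phosphorylates transcription factors that induce dual-specificity phosphatases and Sprouty proteins, which in turn dampen the pathway, and PD03 blocks it at MEK. Of 19 tested genes 8 were higher (42.1%, against 18.8% of all tested genes), 2 lower (10.5%, against 10.9%) and 9 did not pass (median 0.93, and 1.41 without mESC replicate 1). Dusp5, a nuclear ERK phosphatase, went from 1.96 and 2.93 CPM in mESC to 18.1 and 26 CPM in 2C::GFP+/SGC (3.22 ± 0.28, adjusted p = 1.96e-06). Spry4, an inhibitor of receptor tyrosine kinase signalling, went from 36.3 and 24.8 to 101 and 124 CPM (1.86 ± 0.21). Dusp6, a cytoplasmic ERK phosphatase, rose by 0.93 ± 0.21 (log2, SE). Il17rd, a membrane inhibitor of FGF signalling, fell by 0.99 ± 0.15. Ccnd1, cyclin D1, fell by 1.37 ± 0.39 (adjusted p = 0.0478), a call that ended without 2C::GFP+/SGC replicate 2 (0.103), without either mESC replicate (0.149 and 0.171) and without either 2C::GFP+/SA replicate (0.0641 and 0.151).

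The targets of LIF and STAT3 were lower in 6 of 16 cases and higher in 2 (median -0.55). These are 37.5% and 12.5%, against 10.9% and 18.8% of all tested genes. Both media named for the cells hold LIF at the same concentration, and the part of LIF in these values was not tested. Stat3 itself went from 185 and 179 to 81.1 and 84.4 CPM (-1.13 ± 0.14, adjusted p = 6.18e-05). Tfcp2l1, a naive pluripotency factor downstream of STAT3 (ENSMUSG00000026380, chromosome 1, 118627945 to 118685168), went from 1217 and 1365 to 250 and 299 CPM (-2.23 ± 0.15, adjusted p = 3.10e-07), and Klf4, another such factor, from 338 and 453 to 163 and 163 CPM (-1.28 ± 0.14). For Stat3 and Tfcp2l1 the replicates lay far closer than the groups. The mESC replicates of Klf4 were further apart, and both lay above 2C::GFP+/SGC. The 2 called higher were Gbx2, a homeobox gene that sustains self-renewal (0.82 ± 0.25), and Pim1, a survival kinase (1.33 ± 0.37), and leaving out single libraries ended both calls. For Gbx2 the adjusted p was 0.0817 and 0.0535 without 2C::GFP+/SGC replicate 1 and 2 and 0.13 without mESC replicate 2. For Pim1 it was 0.0639 without 2C::GFP+/SGC replicate 2 (log2 fold change 0.81), 0.196 and 0.231 without mESC replicate 1 and 2, and 0.0518 and 0.137 without 2C::GFP+/SA replicate 1 and 2.

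Core factors of pluripotency were called higher in 16.7% of cases and lower in 25%, against 18.8% and 10.9% of all tested genes. Of 12 core factors 2 were higher, 3 lower and 7 did not pass (median -0.18), and without 2C::GFP+/SGC replicate 1 it was 1 and 1. Pou5f1, which encodes OCT4, was at 687 and 627 CPM in mESC and at 559.8 and 554 CPM in 2C::GFP+/SGC. Its log2 fold change of -0.24 did not pass (SE 0.13, adjusted p = 0.191, 95% interval -0.60 to 0.12), and neither did that of Nanog (-0.15 ± 0.17, interval -0.62 to 0.32). Sox2 went from 472 and 537 to 383 and 377 CPM (-0.41 ± 0.13, adjusted p = 0.0268), and the call ended without mESC replicate 2 (0.215) or without either 2C::GFP+/SGC replicate (0.107 and 0.135), and with limma on log2(TPM + 1) (0.251). Tdgf1, a co-receptor for Nodal, rose by 0.90 ± 0.16. Gdf3, a ligand of the same family, had a value of -0.71 ± 0.17 and lost its call without mESC replicate 1 (0.0769). Among 20 naive factors 5 were lower (25%, against 10.9% of all tested genes) and 5 higher (25%, against 18.8%), with a median of -0.14. Tfcp2l1 and Klf4 were among those that fell, and Ncoa3, a coactivator that works with ESRRB, was higher by 0.87 ± 0.14. Without either 2C::GFP+/SGC replicate 3 naive factors were called higher. Zfp42, a standard marker of naive ESCs, did not pass (-0.21 ± 0.18), nor did Prdm14 (-0.31 ± 0.17), which represses DNA methylation and FGF signalling.

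Of 22 genes of formative and primed pluripotency, the states that follow the naive one, 9 were higher (40.9%) and 0 lower. Over all tested genes 18.8% were higher and 10.9% lower. The median of the list was 0.70, and 0.46 without mESC replicate 2. Dnmt3a (ENSMUSG00000020661, chromosome 12, 3806007 to 3914443), a de novo DNA methyltransferase, was at 47.9 and 66.6 CPM in mESC and at 278 and 297 CPM in 2C::GFP+/SGC (2.33 ± 0.19, adjusted p = 3.62e-06). Pou3f1, an octamer-binding factor of primed cells, went from 1.33 and 1.13 to 9.59 and 6.73 CPM (2.71 ± 0.31), and Tcf15 rose by 1.80 ± 0.27. The other parts of the DNA methylation machinery were uneven. Of 16 tested genes 4 were higher (25%, against 18.8% of all tested genes) and 0 lower (against 10.9%). Dnmt3l, the cofactor of the de novo enzymes, went from 124 and 94.1 to 222 and 246 CPM (1.10 ± 0.17). Dnmt3b was at 234 and 110 CPM in mESC and at 219 and 229 CPM in 2C::GFP+/SGC. The mESC replicates of Dnmt3b lay on both sides of the others' level, its value of 0.38 ± 0.33 did not pass, and its value was 1.02 without mESC replicate 1 (adjusted p = 0.00246) and -0.07 without mESC replicate 2.

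**Figure D3:**
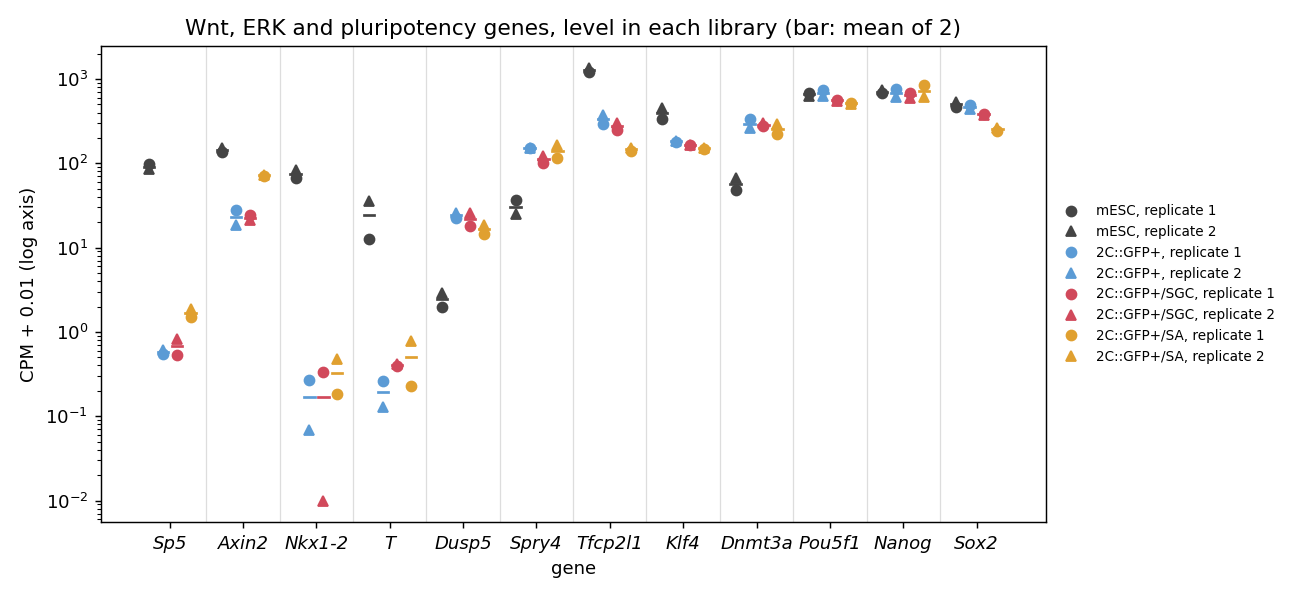
CPM + 0.01 (log axis) in each of the 8 libraries for Wnt targets (Sp5, Axin2, Nkx1-2, T), ERK feedback genes (Dusp5, Spry4), naive factors (Tfcp2l1, Klf4), Dnmt3a and core factors (Pou5f1, Nanog, Sox2). Circles are replicate 1, triangles replicate 2 and bars the mean of the 2; mESC (black) stands apart from the 3 groups of reporter cells for the first 9 genes and near them for Pou5f1 and Nanog.

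The gene of the inhibited enzyme was expressed at like levels. Dot1l (ENSMUSG00000061589, chromosome 10, 80755206 to 80795461) was at 232 and 176 CPM in mESC and at 218 and 207 CPM in 2C::GFP+/SGC, a log2 fold change of 0.06 ± 0.15 (adjusted p = 0.816, 95% interval -0.35 to 0.47), and -0.13 without mESC replicate 2. SGC0946 acts on the enzyme's activity, which RNA-seq does not read, so this level is no check of the treatment. Of 23 tested genes of DOT1L-containing complexes and their partners in transcription elongation, 5 were higher (21.7%) and 2 lower (8.7%), shares near the 18.8% and 10.9% of all tested genes (median -0.08). Ctr9, a subunit of the PAF1 elongation complex, went from 99.8 and 106 to 185 and 229 CPM (1.01 ± 0.14, adjusted p = 0.000154). Aff1, a scaffold of the super elongation complex, went from 328 and 288 to 108 and 119 CPM (-1.44 ± 0.14, adjusted p = 4.02e-06). Aff3 and Aff4, related scaffolds, were called higher at 1.88 ± 0.39 and 0.45 ± 0.13, and Men1, which links to the MLL complex, lower at -0.50 ± 0.14. The value of Aff3 was 1.20 without 2C::GFP+/SGC replicate 2. Its call ended without mESC replicate 1 (0.0557), that of Men1 without mESC replicate 1 (0.081) or 2C::GFP+/SGC replicate 2 (0.123), and that of Aff4 without any 1 of the 4 libraries (0.051 to 0.136). The list had 3 genes called higher when 2C::GFP+/SGC replicate 1 or 2C::GFP+ replicate 2 was left out, and 2 when 2C::GFP+/SGC replicate 2 or either mESC replicate was. Kdm5b, the demethylase named as the target of the other compound of the series, had 489 and 558 CPM in mESC and 711 and 886 CPM in 2C::GFP+/SGC (0.61 ± 0.14, adjusted p = 0.00442), a call that ended without mESC replicate 1 (0.069) or 2C::GFP+/SGC replicate 2 (0.116).

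Markers of other cell types that an ESC culture can hold were read next to these results. Over all tested genes 18.8% were called higher and 10.9% lower. The shares were 29.2% and 4.17% for primitive endoderm markers and 25% and 29.2% for trophoblast markers. They were 11.1% and 22.2% for mesendoderm markers and 40% and 6.67% for neuroectoderm markers. Of 24 primitive endoderm markers 7 were higher and 1 lower (median 1.46, and 0.83 without 2C::GFP+/SGC replicate 2), with 4 higher without 2C::GFP+/SGC replicate 2 or either mESC replicate, and 11 and 12 without 2C::GFP+/SA replicate 1 and 2. Gata6, a regulator of that lineage, was at 0.0729 and 0.103 CPM in mESC and at 1.68 and 3.74 CPM in 2C::GFP+/SGC (4.99 ± 0.59), a level far below that of the pluripotency factors, and Lama1, a basement membrane laminin, went from 209 and 311 to 45.4 and 46.9 CPM (-2.49 ± 0.35). Of 24 trophoblast markers 6 were higher and 7 lower (median 0.08). Krt8, a keratin, went from 31.9 and 40.6 to 7.32 and 7.27 CPM (-2.31 ± 0.26) and Tead4, a regulator of trophectoderm, from 84.9 and 81.1 to 21.3 and 14.9 CPM (-2.18 ± 0.20). Gcm1, of the placental labyrinth, had no count in mESC and 0.415 and 0.68 CPM in 2C::GFP+/SGC, at least 23-fold higher. Without mESC replicate 1 the trophoblast count was 3 higher. Of 18 mesendoderm markers 2 were higher and 4 lower (median 0.38, and 0.07 without 2C::GFP+/SGC replicate 1). With DESeq2 4 were higher, and the count also moved when single libraries were left out. The 2 higher were Mesp2 (log2 fold change 1.89 to 2.60 over 19 alternatives) and Sox17 (3.59 ± 0.95, and 1.27 to 9.97 over 19 alternatives). The call of Sox17 ended without 2C::GFP+/SGC replicate 2 (log2 fold change 2.94) or mESC replicate 2 (3.16). Among the lower were T and Cdx1 (-3.22 ± 0.34), which are also Wnt targets, and Eomes (-1.42 ± 0.24). Of 15 neuroectoderm markers 6 were higher and 1 lower (median 0.99), and 3 were higher without 2C::GFP+/SGC replicate 1 or mESC replicate 2. Pax6, an eye and forebrain regulator, went from 0.459 and 0.103 to 8.18 and 6.93 CPM (4.41 ± 0.47).

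For cells that come with a culture rather than from it, the counts were as follows. The shares called higher and lower were 56.2% and 6.25% for fibroblast markers. They were 33.3% and 11.1% for blood and macrophage markers and 30% and 10% for endothelial markers, against 18.8% and 10.9% of all tested genes. Of 16 tested fibroblast markers, which feeder cells would carry, 9 were higher and 1 lower (median 1.62). Their summed level went the other way, 1219 and 1237 TPM in mESC and 851.2 and 739.3 TPM in 2C::GFP+/SGC, since Fn1, fibronectin, was the most abundant member and went from 2474 and 2939 to 1545 and 1296 CPM (-0.93 ± 0.14). Loxl1, an enzyme that crosslinks elastin, went from 0.102 and 0.103 to 2.64 and 4.08 CPM (4.99 ± 0.57), Thy1, a surface protein, rose by 1.61 ± 0.25, and Ccn2, a matrix protein and target of YAP, by 2.20 ± 0.17. With limma on log2(TPM + 1) 5 of the list were called higher (median 0.42). Of its 7 members too low to test, Postn had no count in any of the 4 libraries, Col3a1 had 4 counts in each group and Lum 2. Of 9 tested blood and macrophage markers 3 were higher and 1 lower, and 11 more were too low to test. The summed level of that list was 219 and 195.3 TPM in mESC and 227.8 and 164.2 TPM in 2C::GFP+/SGC. Adgre1 had no count in the 4 libraries, Lyz2 had none in mESC and 2 in 2C::GFP+/SGC, and Ptprc had 2 and 3. Myo1f, an unconventional myosin known from leukocytes, went from 0.102 and 0 CPM in mESC to 39 and 36.6 CPM in 2C::GFP+/SGC (8.74 ± 0.35). Without mESC replicate 1 the remaining mESC library is at 0 and the fitted value is 14.1, which is no bound. Of 10 endothelial markers 3 were higher and 1 lower, with a summed level of 134.4 and 156.5 TPM in mESC and 153.1 and 149.1 TPM in 2C::GFP+/SGC. Sox18, a vascular transcription factor, was at 3.59 and 4.49 CPM in 2C::GFP+/SGC (3.64 ± 0.49). The part of these cell types in the other results was not tested.

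Most sterol biosynthesis genes were called lower. Of 25 tested 18 were lower (72%, against 10.9% of all tested genes), 0 higher and 7 did not pass, with a median of -0.64, and limma on log2(TPM + 1) called 10. Insig1, which restrains the sterol sensor SCAP, went from 136 and 129.5 CPM in mESC to 69 and 75.4 CPM in 2C::GFP+/SGC (-0.88 ± 0.13), and Stard4, a sterol carrier, fell by 0.97 ± 0.15. The falls of most members were small, and the groups were still apart in both of these. Of 19 glycolysis genes 9 were lower (47.4%, against 10.9%) and 1 higher (5.26%, against 18.8% of all tested genes), with a median of -0.38. With limma on log2(TPM + 1) 5 were lower, and leaving out single libraries also moved this count. Hk2, a hexokinase, went from 522 and 500.5 to 251 and 251 CPM (-1.03 ± 0.12, adjusted p = 2.60e-05) and Tpi1, triosephosphate isomerase, fell by 0.77 ± 0.13. Slc16a3, a lactate exporter, was called higher (0.77 ± 0.23, adjusted p = 0.0334), a call that ended under 13 of the 19 alternatives, among them leaving out any single library other than 2C::GFP+/SA replicate 1 and mESC replicate 2.

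Targets of p53 were lower in 9 of 28 cases and higher in 2 (median -0.21), and limma on log2(TPM + 1) called 3 lower. In edgeR the shares were 32.1% lower and 7.14% higher, against 10.9% and 18.8% of all tested genes. Cdkn1a (ENSMUSG00000023067, chromosome 17, 29090976 to 29100727), the cell cycle inhibitor p21, went from 223 and 297 CPM in mESC to 54.5 and 47.3 CPM in 2C::GFP+/SGC (-2.35 ± 0.17, adjusted p = 6.43e-07), and Phlda3, an inhibitor of AKT, fell by 1.55 ± 0.23. Pmaip1, the pro-apoptotic NOXA, moved the other way, from 4.15 and 5.7 to 31.5 and 52.1 CPM (3.12 ± 0.32), as did Sesn1 (0.75 ± 0.17). Of 30 proliferation genes 10 were higher and 2 lower (median 0.03), and 4 were higher without 2C::GFP+/SGC replicate 2 or mESC replicate 2 and 6 without mESC replicate 1. The count of lower genes was 5 without 2C::GFP+/SA replicate 2 and 1 without 2C::GFP+ replicate 1, mESC replicate 1 or either 2C::GFP+/SGC replicate. With all libraries 33.3% of the proliferation genes were higher and 6.67% lower, against 18.8% and 10.9% of all tested genes. Ccne1, cyclin E1, rose by 0.75 ± 0.15. Cdk1, the mitotic kinase, went from 136 and 123 to 230.3 and 257 CPM (0.91 ± 0.12) and Top2a, a topoisomerase, rose by 0.82 ± 0.13. Cdk2, the kinase of S phase entry, fell by 0.74 ± 0.13. Ccne2, cyclin E2, was called lower (-0.56 ± 0.19, adjusted p = 0.0423), a call that ended under 13 of the 19 alternatives. Of 23 integrated stress response genes 2 were higher and 2 lower (8.7% each, against 18.8% and 10.9% of all tested genes). The count of higher genes moved without mESC replicate 1. Asns, asparagine synthetase, went from 649 and 802 to 296 and 333 CPM (-1.21 ± 0.17). Ppp1r15a, which ends the response, was higher by 0.91 ± 0.18. Psat1, of serine synthesis, was called lower (-0.39, adjusted p = 0.0489), and its call ended under 13 of the 19 alternatives, among them leaving out any 1 of the 4 libraries compared (0.0536 to 0.336) or 2C::GFP+ replicate 1 (0.0743). Of 20 interferon and nucleic acid sensing genes 4 were higher (20%) and 2 lower (10%), near the 18.8% and 10.9% of all tested genes, and 1 was lower without either 2C::GFP+/SGC replicate. The class I antigen genes H2-K1 (from 5.2 and 9.19 to 28.2 and 29.2 CPM, 2.03 ± 0.24) and H2-D1 (1.58 ± 0.22) rose, and Irf9, a partner of STAT proteins, fell by 1.10 ± 0.24. B2m, the light chain of class I antigens, was called lower (-0.73 ± 0.25, adjusted p = 0.042), a call that ended under 9 of the 19 alternatives, among them leaving out either 2C::GFP+/SGC replicate (0.17 and 0.121), 2C::GFP+ replicate 1 (0.0585) or mESC replicate 2 (0.471, at -0.34).

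Imprinted genes, which are expressed from 1 parental allele, were higher in 9 of 28 cases and lower in 3 (median 0.48). These are 32.1% and 10.7%, against 18.8% and 10.9% of all tested genes. Magel2 went from 0.131 and 0 CPM in mESC to 6.36 and 7.34 CPM in 2C::GFP+/SGC (5.96 ± 0.45, and 11.7 without mESC replicate 1), and H19 from 0.204 and 0.308 to 3.76 and 3.87 CPM (4.06 ± 0.37). Grb10, an adaptor that limits insulin signalling, went from 34.8 and 31.3 to 151 and 175 CPM (2.30 ± 0.16). Plagl1, a zinc finger gene of growth control, moved the other way, from 91.4 and 129 to 12.9 and 14.1 CPM (-3.03 ± 0.18), as did the non-coding Rian (-1.25 ± 0.16). Epithelial and junction genes split evenly, 8 higher and 8 lower of 22 (36.4% each, against 18.8% and 10.9%). Epcam, an adhesion molecule, went from 37.4 and 61.7 to 150.1 and 189.7 CPM (1.79 ± 0.22) and Cgn, of tight junctions, rose by 1.53 ± 0.18. Gjb5, a gap junction gene, fell by 2.40 ± 0.26. Without mESC replicate 1 or 2C::GFP+/SGC replicate 2 the epithelial list had 5 genes called higher.

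**Figure D4:**
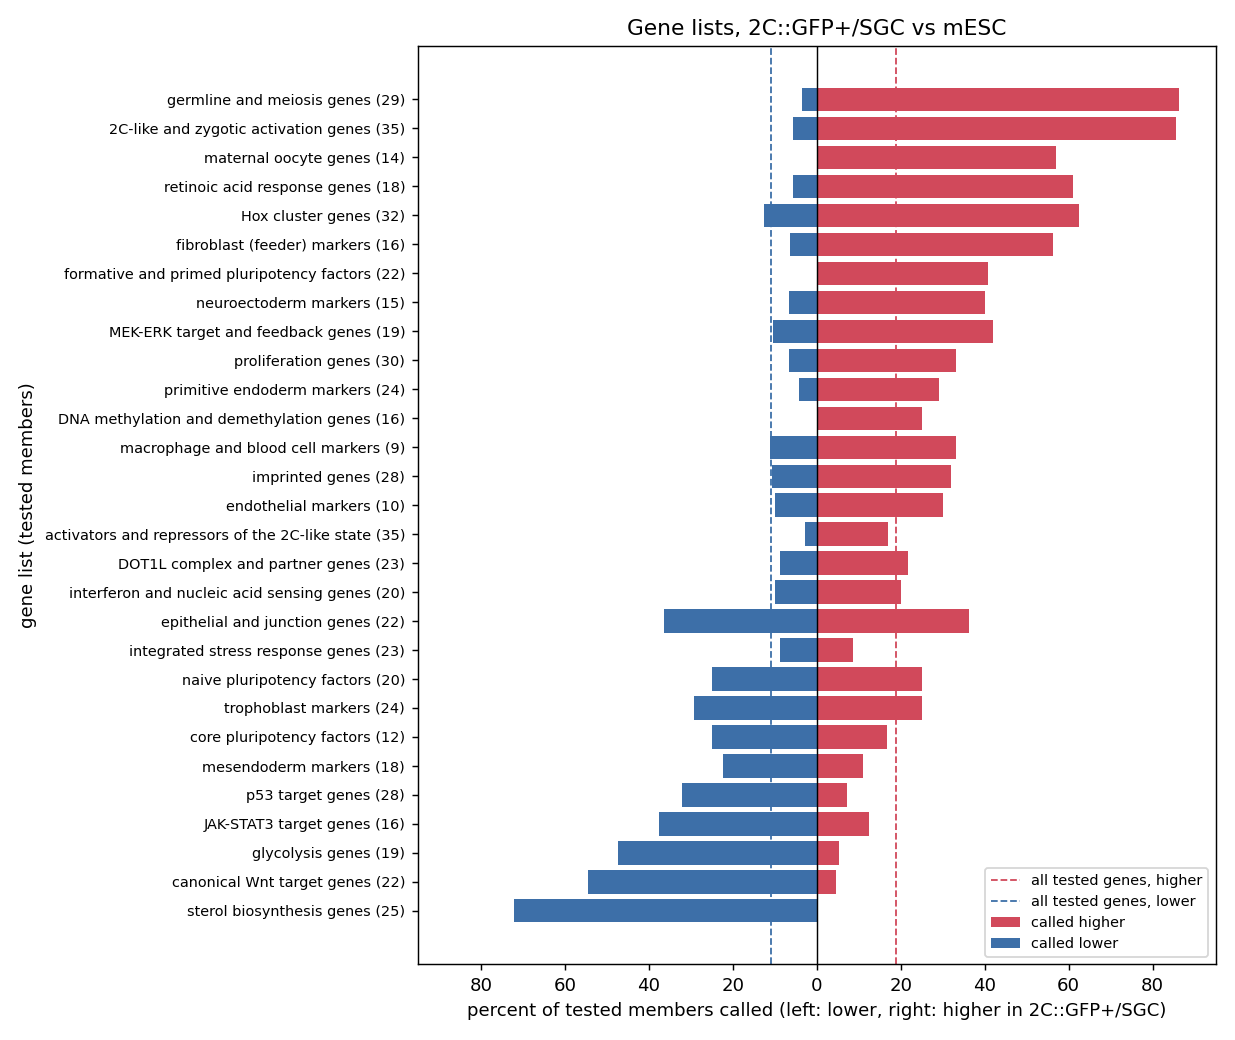
Share of the tested members of each of the 29 gene lists called higher (red, to the right) and lower (blue, to the left) in 2C::GFP+/SGC against mESC, in percent, with the number tested in brackets. Dashed lines mark the shares over all tested genes, 18.8% higher and 10.9% lower; lists are ordered by the difference between the shares, from germline and 2-cell-like genes at the top to sterol biosynthesis and Wnt targets at the bottom.

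Among named genes with at least 10 CPM in the higher group, the 10 largest rises were in Apol7b, Zfp352, Stra8, Ubtfl1, Chrm3, Zscan4e, Myo1f, Zscan4b, Zscan4c and Olfr374. Apol7b, of the apolipoprotein L family, had no count in mESC and 20.3 and 13.3 CPM in 2C::GFP+/SGC, at least 1030-fold higher (adjusted p = 0.00374). Its call ended without 2C::GFP+/SGC replicate 2 (0.0751) or 2C::GFP+ replicate 2 (0.0649). Chrm3, a muscarinic acetylcholine receptor, went from 0.0146 and 0.103 to 14.6 and 14.4 CPM (9.01 ± 0.50). The 10 largest falls were in Nkx1-2, Sp5, Casq2, T, Pglyrp1, Trpm1, Nod2, Ccbe1, Nkx6-2 and Fst. Trpm1, a cation channel, went from 104 and 127 to 2.12 and 3.67 CPM (-5.44 ± 0.52), and Nkx6-2, a homeobox gene, from 47.3 and 82.8 to 2.28 and 2.85 CPM (-4.70 ± 0.36). Fst, an activin antagonist, fell by 4.26 ± 0.35. Library values in mESC were 12.3 CPM or more for the genes of the falls and 1.49 CPM or less for those of the rises.

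The untreated 2C::GFP+ cells show which of these values were present without SGC0946, although their 2 columns were assigned by elimination. Both comparisons with mESC share the mESC libraries, so values are set side by side and the difference is tested directly between 2C::GFP+/SGC and 2C::GFP+. In edgeR 0 of 20608 genes (0%) passed that test, with a smallest adjusted p of 0.116 and 2037 genes at an unadjusted p under 0.05. The count was 288 with DESeq2 and 0 with limma on log2(TPM + 1). Leaving out single libraries gave between 0 and 431 called genes, the most without 2C::GFP+/SA replicate 2, whose group adds to the spread but is not compared. A p that misses the threshold does not show that the groups were alike.

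Zscan4c was at 156 and 196 CPM in 2C::GFP+, below both 2C::GFP+/SGC libraries (356 and 372 CPM), a difference of 1.05 ± 0.52 on the log2 scale (adjusted p = 0.575). Duxf3 was at 4.71 and 4.99 CPM in 2C::GFP+ (difference 1.20 ± 0.23, adjusted p = 0.138). Zfp352 was at 6.89 and 4.75 CPM (1.69 ± 0.45, adjusted p = 0.335). In each of these 3 genes both treated libraries lay above both untreated reporter libraries, as they did for 24.3% of all tested genes (19.6% lay below), while the log2 fold changes of untreated 2C::GFP+ against mESC were 7.62 for Zscan4c, 6.93 for Duxf3 and 8.17 for Zfp352. The median of the 2C-like list was 6.75 in 2C::GFP+ against mESC and 7.94 in 2C::GFP+/SGC against mESC, and its summed TPM was 2394 and 3092 in 2C::GFP+ beside 6213 and 6067 in 2C::GFP+/SGC. Stra8 was at 47.2 and 79.4 CPM in 2C::GFP+, so that its higher replicate nearly reached the lower of 2C::GFP+/SGC (80.9 CPM). For Sp5, Axin2 and Dnmt3a the values lay closer together. Sp5 was at 0.534 and 0.594 CPM in 2C::GFP+ (difference 0.09 ± 0.28). Axin2 was at 28.1 and 18.3 CPM (-0.04 ± 0.18) and Dnmt3a at 332 and 259 CPM (-0.04 ± 0.18). The Wnt list had a median of -1.04 in 2C::GFP+ against mESC and 0.23 in 2C::GFP+/SGC against 2C::GFP+. In the same order the medians were 0.08 and -0.30 for core factors and 0.02 and -0.27 for naive factors.

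The genes of smallest p between 2C::GFP+/SGC and 2C::GFP+ with at least 10 CPM were Neto2, Gm11290, Mras, Lonrf3, Hmces and Epha4, each at an adjusted p of 0.116. Neto2, an auxiliary subunit of kainate receptors, was at 1.82 and 1.23 CPM in mESC, at 9.8 and 11.3 CPM in 2C::GFP+ and at 30.7 and 33.2 CPM in 2C::GFP+/SGC (difference from 2C::GFP+ 1.60 ± 0.23). Lonrf3, a ring finger gene, had a difference of 1.41 ± 0.23. Mras, a small GTPase, was at 75 and 66.8 CPM in 2C::GFP+ and at 38.8 and 33.7 CPM in 2C::GFP+/SGC (-0.96 ± 0.15), with mESC between them at 60.7 and 56.4 CPM. Epha4, an ephrin receptor, was at 103 and 94.3 CPM in 2C::GFP+ and at 61.3 and 49.2 CPM in 2C::GFP+/SGC (-0.83 ± 0.14). Magel2 had a difference of 2.01 ± 0.34 at the same adjusted p. These differences did not pass the threshold and are given as values.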

How the data were processed

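Polyadenylated RNA was sequenced, per the labels' protocols. The authors deposited a table of read counts per gene, without normalization, and a table of TPM made from the same counts. Per the submitters' processing notes the tools were STAR 2.7.4a, featureCounts 2.0.0, Trim Galore 0.6.5 and FastQC 0.11.9, with the builds mm10 and GRCm38. Annotation release, strand setting and multimapping reads: not given in the sources used here. Of 8 sample columns, 6 match the labels and 2, named after the serum replacement, were given to 2C::GFP+ by elimination, and 0 were left out. Of 55573 genes, 55480 matched GENCODE M21, which gave symbols and coordinates. edgeR 4.0.16 (R 4.3.3) kept 20608 genes with filterByExpr, scaled by TMM and fitted all 8 libraries with 1 term per group and the robust quasi-likelihood method (4 residual degrees of freedom, biological coefficient of variation 20.6%). P-values were adjusted by Benjamini-Hochberg over all tested genes, and a call is an adjusted p under 0.05. Each SE equals the size of the log2 fold change over the root of its F statistic. The 95% intervals of log2 fold changes take the t quantile at the 4 residual degrees of freedom. The test also borrows information across genes, so these intervals are wider than its p-values imply. Counting intervals are 95% and cover counting error only, as do bounds of 3 counts. The fit was tested on simulated data. Alternatives used DESeq2 1.42.0 and limma 3.58.1 on log2(TPM + 1) and log2(TPM + 0.1).

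The comparison, the 29 gene lists (647 of 650 symbols matched) and the naming rule were chosen with earlier results of these data known. Named were the 10 largest rises and falls with at least 10 CPM and without overlap, predicted models excluded; of each list up to 3 called members in the commoner direction and up to 2 in the rarer one, by adjusted p, or the 2 most abundant where none was called; the 6 genes of smallest p between 2C::GFP+/SGC and 2C::GFP+; and 21 genes eligible throughout. Some genes that this rule names are not reported here.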

Additional observations from a re-analysis of the deposited data

How the results depend on the processing

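The counts of called genes in 2C::GFP+/SGC against mESC stayed within 1.5 times of 6115 under RLE factors (6180), DESeq2 (6149), no filter (6471), a stricter filter (5438), only the libraries compared (6438), without both 2C::GFP+ libraries (5776) and with deeper libraries thinned (5274). limma on log2(TPM + 1) called 3940 genes, 1069 of them lower, and limma on log2(TPM + 0.1) called 1000 lower. Leaving out single libraries gave 3454 to 7026 called genes, 2185 to 4161 higher and 1208 to 2865 lower, the smallest total without mESC replicate 1. For 2C::GFP+/SGC against 2C::GFP+ the count of 0 became 288 with DESeq2, 1 with limma on log2(TPM + 0.1), 499 without the filter, 326 with only the libraries compared and 79 without both 2C::GFP+/SA libraries, and 0 to 431 without single libraries. The causes were not tested. The planned replicate block over 8 libraries could not be fitted, since the 2C::GFP+ columns carry no label number. A replicate block on 6 libraries, added after seeing the data as was leaving out both 2C::GFP+/SA libraries, called 6551 genes (4001 higher, 2550 lower) and gave no value for the other comparison. The differences between replicates 1 and 2 correlated across genes with r of 0.123 for mESC and 2C::GFP+/SGC, 0.041 for mESC and 2C::GFP+/SA and 0.142 for 2C::GFP+/SGC and 2C::GFP+/SA. No label says that a number marks a shared culture or batch, and replicate 1 was the deeper library in all 4 groups. Counts of calls per list and direction stayed within 1.5 times in 912 cases and moved further in 190. Named genes were mostly chosen by small p or large change in this same fit, so their stability does not measure that of all calls. Of 145 named genes called, 115 kept call and direction under all 19 alternatives and 30 lost the call under 1 or more. Without mESC replicate 1 and without mESC replicate 2, Dot1l was at 0.261 and -0.131 and Dnmt3b at 1.019 and -0.066, so both turned in sign, and Dnmt3b was called at 1.019 only. Replicate 2 libraries, with fewer counts, limit genes below about 0.2 CPM.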

Other observations

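The calls were spread over all autosomes and chromosome X, with unequal shares. On chromosome 6, of 1024 tested genes 19.3% were higher and 16.3% lower in 2C::GFP+/SGC, and on chromosome 8, of 1088, 15.9% were higher and 15.4% lower. The other autosomes had between 7.32% (chromosome 14) and 11.8% (chromosome 11) of their genes lower. The median log2 fold change was -0.06 on chromosome 8, 0.00 on chromosome 6 and 0.16 on chromosome 14. Among autosomes the share of genes called higher ran from 13.3% on chromosome 16 to 23% on chromosome 12, and on chromosome X, of 745 tested genes, 24.2% were higher and 13.4% lower. Chromosome Y had 13 tested genes, of which 5 were higher and 0 lower. These shares are given as values, with no test between chromosomes.

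Several of the largest falls were in genes that no list holds. Casq2, a calcium-binding protein of the heart's sarcoplasmic reticulum, was at 13.1 and 24.6 CPM in mESC and at 0.337 and 0.136 CPM in 2C::GFP+/SGC. Pglyrp1, a peptidoglycan recognition protein, was at 30.4 and 25 CPM in mESC and at 0.551 and 0.136 CPM in 2C::GFP+/SGC. Nod2, an intracellular sensor of bacterial cell wall fragments, was at 17.8 and 19.4 CPM in mESC and at 0.601 and 0.544 CPM in 2C::GFP+/SGC. All 3 were also low in untreated 2C::GFP+, where Nod2 was at 0.434 and 0.594 CPM and Pglyrp1 at 0.292 and 0.238 CPM, and Casq2 was at 0.559 and 0.475 CPM. Each fell in the edgeR test, with adjusted p of 1.27e-06 for Casq2, 0.00166 for Pglyrp1 and 4.86e-07 for Nod2.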
